A study of Homo sapiens with 2 samples.

Results

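The clustered histone genes encode the core histones H2A, H2B, H3 and H4 and the linker histone H1, and most of them lie side by side in clusters on chromosomes 6 and 1. Their members were the probe sets whose gene has, as its current or older symbol, a name of the HIST1H to HIST4H series or of the newer H1-, H2AC, H2BC, H3C and H4C series, and 79 of 54613 probe sets fitted this. Of these, 58 were assigned to 1 histone gene each and covered 50 of the 19775 genes with a probe set of their own, 3 of the 50 being pseudogenes. Another 20 were shared by several genes, and 1 read H1-10-AS1, an RNA antisense to a histone gene, which was left out of all counts. RefSeq lists 76 protein-coding genes that fit the rule, of which 47 had a probe set of their own, 19 were read only by shared probe sets and 10 were not analysed here. The rule also takes in H1-7, H1-8 and H1-10, which lie outside the clusters, and H1-6, H2BC1 and H3-4, which are known from testis, H3-4 only through its older symbol HIST3H3.

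MEG-01 cells, a megakaryoblastic line from a patient with chronic myeloid leukaemia, were transduced either with a lentivirus for GAS2DN, a truncated and dominant negative form of GAS2, or with the control vector, which carries Venus, a yellow fluorescent protein. The GAS2DN vector also carries Venus, its transgene is driven by the spleen focus forming virus promoter, and in both groups fluorescent cells were sorted. RNA of 3 extracts per group was pooled, and each pool was read on 1 Affymetrix array with probes near the 3' ends of transcripts. With 1 array for each group there was no replicate, no test between the groups was possible, and all values below are single measurements of a pool.

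Values are MAS5 signals, and differences are log2 GAS2DN minus log2 Venus signal, so that a positive one means a higher signal in GAS2DN cells. The median signal was 69.1 on the GAS2DN array and 55.6 on the Venus array. Probe sets were eligible if at least the brighter signal of the 2 reached its array's median, as 30304 did. They are called bright on both arrays where both signals did, and a signal under its array's median is called dim. GAS2 had signals of 34.7 in GAS2DN cells and 24.3 in Venus cells, both below these medians, and where its probe set lies relative to the truncated part is not given, so it does not check the labels. Of 9 megakaryocytic marker genes with a probe set of their own 7 were eligible, including ITGA2B with 9238 in GAS2DN and 7149 in Venus cells, while PF4 and PPBP were not. Among 8 markers of other lineages CD79A, MS4A1, LYZ and COL1A2 were eligible, and CD3D, CD3E, CD14 and COL1A1 were not. COL1A2, a fibroblast collagen gene, had 111 in GAS2DN and 41.0 in Venus cells, and the part of such cells in the results was not tested.

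Replication-dependent histone mRNAs are made in S phase, when new DNA needs new nucleosomes. They end in a stem-loop bound by SLBP and not in a poly(A) tail, although several of these genes also give polyadenylated transcripts, which are known from cells that leave the cycle or differentiate. The labelling kit of these arrays primes on poly(A), and which of the 2 forms gave a signal was not tested. In a population of cells, a change in the share of cells in S phase and a change in RNA per cell cannot be told apart.

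Nearly all histone probe sets that were bright on both arrays had a higher signal in GAS2DN cells, most of them by less than 2-fold. Among the 58 probe sets of 1 gene, 35 were eligible, for 34 genes, and 18 of these, for 17 genes, were bright on both arrays. Of these 18, 17 were higher in GAS2DN cells, whereas 56.4% of all 24164 probe sets of that brightness were. Their median difference was 0.59, with a range of -0.04 to 1.35, and the median over all probe sets of that brightness was 0.06. To set a scale, the SD of the difference between probe sets of 1 gene was 0.41 at that brightness, over 5406 genes. As deposited, the difference was larger than this SD in 13 of the 18, all of them higher in GAS2DN cells. Among the 13, H2BC21, H1-6 and H4C13 had Venus signals of 56.9, 57.3 and 62.5, close to the median of 55.6. The SD pools all probe sets above the medians, and the spread close to the medians was not measured apart. Of all such probe sets, 16.8% were higher and 12.0% lower by more than this SD. After loess and quantile scaling H2BC21 (0.35 and 0.33) and H4C13 (0.31 and 0.28) fell within the same SD. After median centring H1-10 (0.36) and the probe set 222067_x_at of H2BC5 (0.39) did. The SD is a spread between probe sets on the same arrays and not between cultures. None of the 18 was over 3-fold, against 0.17% of all such probe sets that were over 3-fold higher and 0.257% that were over 3-fold lower. Over 2-fold higher were 3 of the 18, against 2.02%. Among these 3, H1-3 was under 2-fold after scaling, with 0.94 after median centring and 0.91 after loess and quantile scaling.

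**Figure D1:**
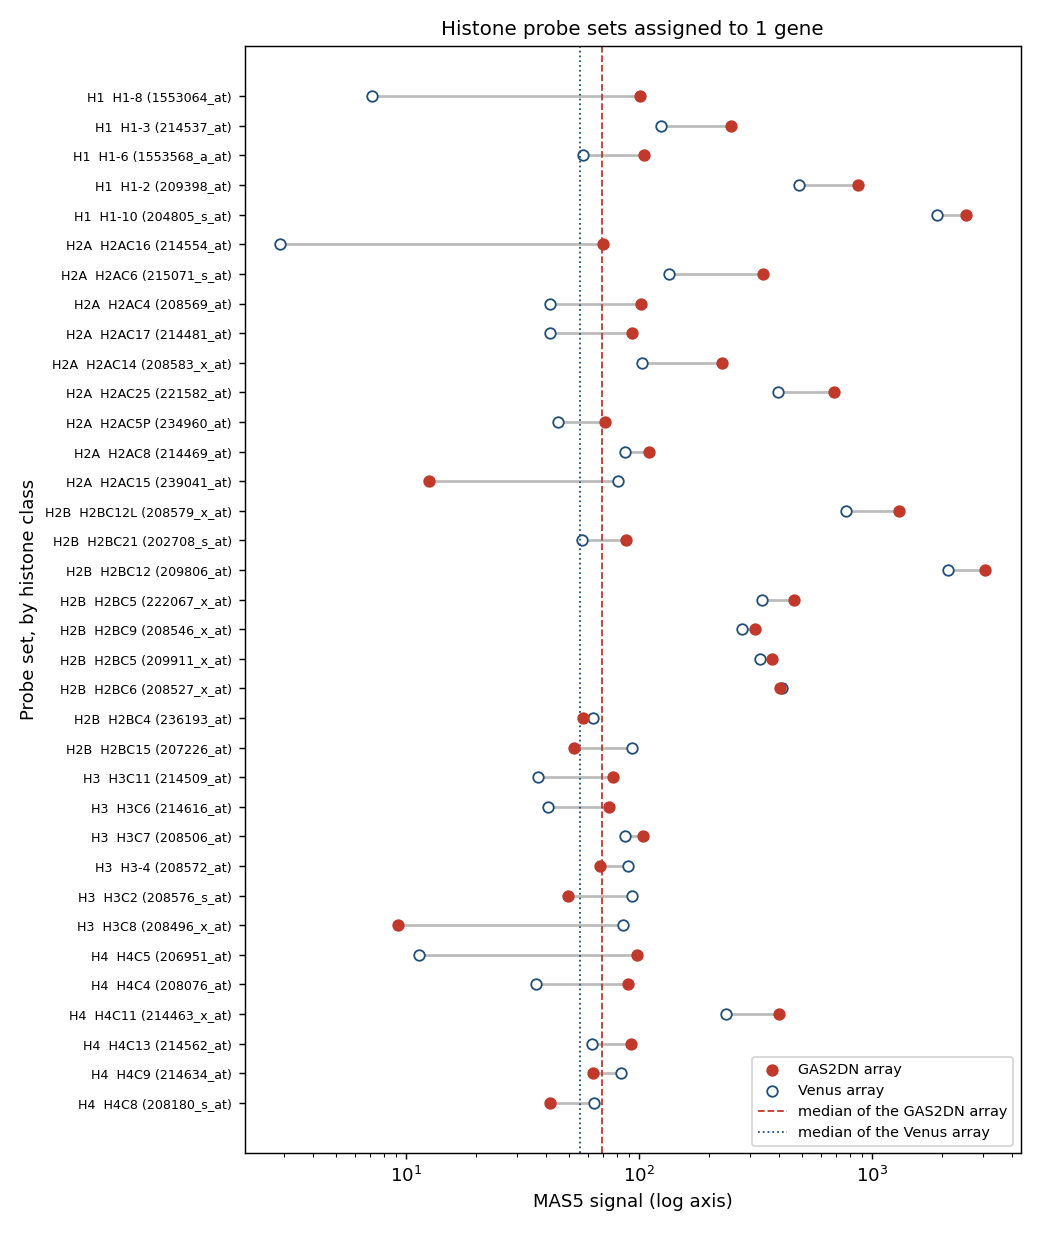
MAS5 signal (x axis, logarithmic) of the 35 eligible probe sets assigned to 1 histone gene, by class, on the GAS2DN array (filled red) and the Venus array (open blue), with the median of each array as a vertical line. To the right of both lines the red point lies to the right of the blue one in 17 of 18 probe sets.

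The other 17 eligible probe sets passed only through 1 array and were dim on the other, which favours large differences among them. The SD between probe sets of 1 gene was 1.95 for probe sets of this kind. Of these, 9 were higher and 8 lower in GAS2DN cells, with differences of -3.21 to 4.60. Every eligible probe set of 1 histone gene that was over 3-fold was of this kind. Over all 35, 3 were over 3-fold higher and 2 over 3-fold lower, against 5.78% and 3.68% of all eligible probe sets, and 26 were higher, against 55.4%. Over 2-fold were 10 higher and 2 lower, against 9.94% and 6.62%. The median of the 35 was 0.62, and that of all eligible probe sets 0.06. A further 23 probe sets of 21 genes were below the median on both arrays, 12 of them higher, against 61.1% of all such probe sets, and 11 lower, with differences of -2.60 to 4.09.

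**Figure D2:**
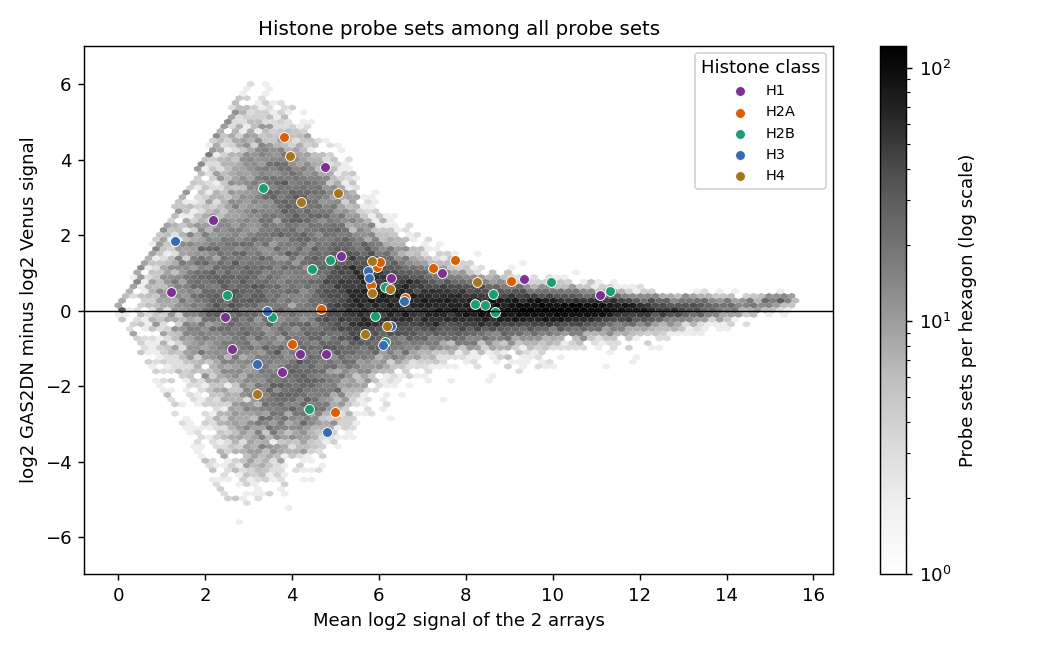
Difference between the arrays (y axis, log2) against the mean log2 signal (x axis) for all 54613 probe sets (grey hexagons, darker where more lie) and for the 58 probe sets of 1 histone gene (coloured by class). From the middle of the x axis to the right the histone points lie mostly above 0, while on the left, among dim probe sets, they scatter in both directions as the grey ones do.

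Linker histones bind where DNA enters and leaves the nucleosome and compact chromatin. All 5 eligible H1 probe sets were higher in GAS2DN cells, with a median difference of 0.87. H1-2, among the linker histones of the cluster on chromosome 6, had a signal of 867 in GAS2DN cells and 487 in Venus cells, a difference of 0.83. H1-3, another linker histone of that cluster, had 248 in GAS2DN cells and 124 in Venus cells, a difference of 1.0. Both differences were over the SD of 0.41 between probe sets of 1 gene. H1-10, the replication-independent linker histone H1X, had 2529 in GAS2DN cells and 1894 in Venus cells, a difference of 0.42, close to that SD. H1-6, the testis linker histone, had 105 in GAS2DN cells and 57.3 in Venus cells in 1553568_a_at, a difference of 0.87, but 4.4 and 8.8 in 207982_at, which was too dim to be eligible. H1-8, the oocyte linker histone, had 101 in GAS2DN cells and 7.2 in Venus cells, a difference of 3.82 that rests on the dim Venus signal and was 0.86 with signals below the median raised to it. The other linker histones of the cluster, H1-1, H1-4 and H1-5, stayed below the median on both arrays, with differences of -1.15, -1.14 and 1.44.

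Histone H2A pairs with H2B to form the dimers on either side of the H3 and H4 tetramer. Eligible H2A probe sets numbered 9, of which 8 were higher in GAS2DN cells, with a median difference of 1.13. H2AC6, once named HIST1H2AC, had 341 in GAS2DN cells and 134 in Venus cells, a difference of 1.35, the largest among the 18 probe sets bright on both arrays. H2AC14 had 226 in GAS2DN cells and 103 in Venus cells, a difference of 1.13 in a probe set whose name ends in _x_at, the mark of probes that can match other sequences. H2AC25, an H2A gene of the smaller cluster on chromosome 1, had 688 in GAS2DN cells and 396 in Venus cells, a difference of 0.80. These 3 genes were higher by more than the SD between probe sets of 1 gene, though the second probe set of H2AC25, 231681_x_at, was dim on both arrays with 11.9 and 21.7. H2AC8 had 110 in GAS2DN cells and 86.9 in Venus cells, a difference of 0.34 that lay within the SD.

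In 5 other H2A probe sets 1 signal was dim. H2AC4 had 102 in GAS2DN cells and 41.3 in Venus cells, a difference of 1.30, and H2AC17 had 93.2 and 41.5, a difference of 1.17. H2AC16 had 69.8 in GAS2DN cells and 2.9 in Venus cells, a difference of 4.60 that shrank to 0.33 with low signals raised to the median. That is close to the 0.31 that the unequal medians give alone. In the opposite direction, H2AC15 had 12.6 in GAS2DN cells and 81.4 in Venus cells in 239041_at, a difference of -2.70, which was -0.24 with low signals raised. Its other probe set had 25.8 and 25.1, so the pair did not move alike. The pseudogene H2AC5P had 71.2 in GAS2DN cells and 44.6 in Venus cells.

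Of 9 eligible H2B probe sets for 8 genes, 6 were higher and 3 lower in GAS2DN cells, none over 2-fold, with a median of 0.19. The 7 that were bright on both arrays had a median of 0.45. H2BC12, once HIST1H2BK, had 3056 in GAS2DN cells and 2110 in Venus cells, a difference of 0.53. H2BC12L, a copy of an H2B gene on chromosome 21, had 1303 in GAS2DN cells and 772 in Venus cells, a difference of 0.75. H2BC21, once HIST2H2BE and in the larger cluster on chromosome 1, had 87.4 in GAS2DN cells and 56.9 in Venus cells, a difference of 0.62. Those 3 exceeded the SD between probe sets of 1 gene as deposited, but H2BC21 fell within it after loess (0.35) and quantile scaling (0.33). H2BC5 was the only histone gene with 2 eligible probe sets, and they had 461 in GAS2DN cells and 338 in Venus cells, and 371 and 331, with differences of 0.45 and 0.16. H2BC6, with 400 in GAS2DN cells and 411 in Venus cells, had a difference of -0.04 and was the only one of the 18 probe sets bright on both arrays that was not higher. H2BC9 had a difference of 0.19. H2BC15 had 52.4 in GAS2DN cells and 93.6 in Venus cells, a difference of -0.84, and H2BC4 had 57.3 and 63.2, a difference of -0.14. Both were dim in GAS2DN cells. With low signals raised H2BC4 was at 0.13, a sign that rests on the higher median of the GAS2DN array. The 7 H2B probe sets bright on both arrays included 5 ending in _x_at, so that they may read in part the same transcripts and are not 7 separate measures. Without probe sets ending in _x_at or _s_at only those of H2BC12, H2BC4 and H2BC15 remained. The H2B median was then -0.14, the value of H2BC4 itself. Of these only H2BC12 was bright on both arrays.

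Histones H3 and H4 form the central tetramer of the nucleosome. Eligible H3 probe sets numbered 6, and 3 were higher and 3 lower in GAS2DN cells, with a median of -0.07. H3C7 was the only one with both signals above the medians, with 104 in GAS2DN cells and 87.3 in Venus cells, a difference of 0.25 that lay within the SD. H3C11, with 77.1 in GAS2DN cells and 36.9 in Venus cells, had a difference of 1.06, and H3C6, with 74.0 and 40.6, one of 0.87. Lower signals in GAS2DN cells were found for H3C2, with 49.5 against 93.2 in Venus cells, and for H3-4, with 67.8 against 89.2. H3C8 had 9.3 in GAS2DN cells and 85.5 in Venus cells, a difference of -3.21, the lowest of all members, which was -0.31 with low signals raised. The H3 probe sets thus went in both directions, and all but 1 had a dim signal.

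For H4, 4 of 6 eligible probe sets were higher in GAS2DN cells, with a median of 0.66. H4C11 had 399 in GAS2DN cells and 236 in Venus cells, a difference of 0.76, and H4C13 had 92.5 and 62.5, a difference of 0.57. Both were bright on both arrays and, as deposited, exceeded the SD between probe sets of 1 gene. H4C13 fell within it after loess (0.31) and quantile scaling (0.28). The probe set of H4C11, 214463_x_at, can match other sequences. H4C5 had 98.1 in GAS2DN cells and 11.4 in Venus cells, a difference of 3.11, and 0.82 with low signals raised. H4C4 had 89.8 in GAS2DN cells and 36.2 in Venus cells, a difference of 1.31, and 0.69 with low signals raised. H4C5 and H4C4 were dim in Venus cells. H4C8 and H4C9, both dim in GAS2DN cells, had differences of -0.62 and -0.40. That of H4C8 was 0.11 with low signals raised, a sign that rests on the higher median of the GAS2DN array. The second probe set of H4C8 had 64.1 in GAS2DN cells and 3.8 in Venus cells and was not eligible.

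**Figure D3:**
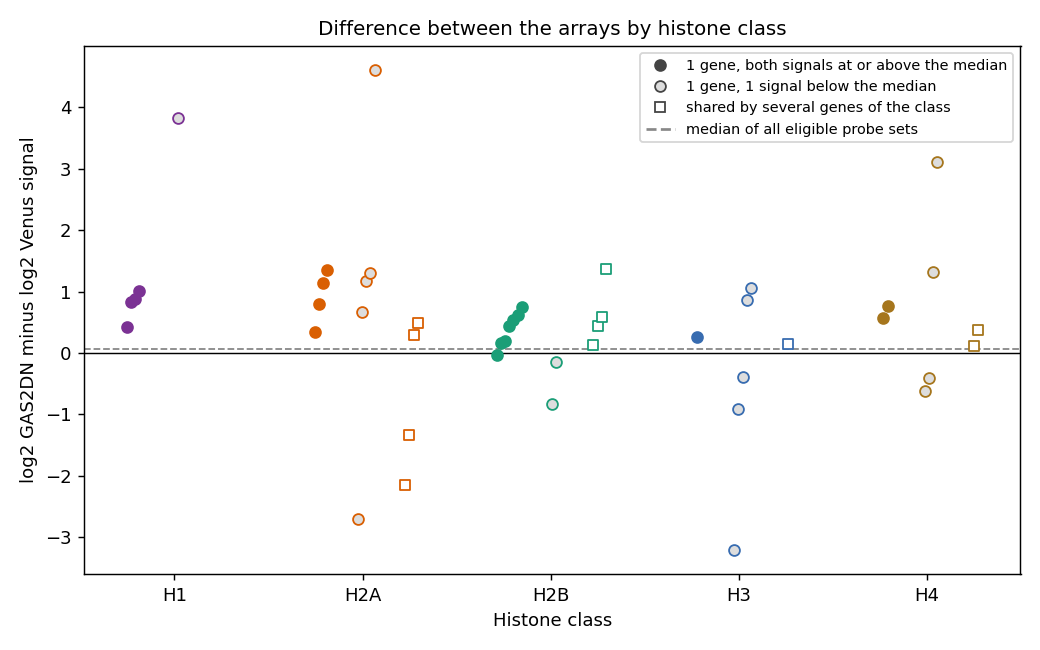
Difference between the arrays (y axis, log2 GAS2DN minus log2 Venus) of eligible probe sets in each histone class, split into those bright on both arrays (filled), those with 1 dim signal (grey) and those shared by several genes of the class (squares), with the median of all eligible probe sets as a dashed line. Filled points lie between -0.04 and 1.35 and 17 of 18 are above 0, whereas grey points spread from -3.21 to 4.60; the 2 eligible probe sets shared by H3 and H2A genes are not drawn.

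Shared probe sets matter in this family because the genes of a class are nearly identical in their coding parts. Of the 20 shared ones 13 were eligible and 10 were bright on both arrays. As deposited all 10 were higher in GAS2DN cells, against 56.4% of all probe sets of that brightness. Their differences were 0.12 to 1.36, with a median of 0.40. The probe set 206110_at turned to -0.069 after loess and -0.0862 after quantile scaling. The 10 were assigned to only 6 sets of genes, some of which overlap, and are not 10 separate measures. The probe set 205967_at, assigned to 14 H4 genes, had 35733 in GAS2DN cells and 27648 in Venus cells, a difference of 0.37, and 208580_x_at, assigned to the same 14 genes, had 273 and 252, a difference of 0.12. Both lay within the SD between probe sets of 1 gene. For the neighbours H2AC18 and H2AC19 of chromosome 1, 214290_s_at had 578 in GAS2DN cells and 414 in Venus cells, a difference of 0.48, and 218280_x_at had 382 and 313, a difference of 0.29. Another probe set of this pair was dim, with 18.3 and 40.5.
Among H2B genes, the probe sets 208490_x_at and 208523_x_at, each assigned to H2BC4, H2BC6, H2BC7, H2BC8 and H2BC10, had differences of 0.43 and 0.59. H2BC8 and H2BC11 were read together by 215779_s_at, with 155 in GAS2DN cells and 60.4 in Venus cells, and by 210387_at, with 184 and 168, so that the 2 probe sets of these genes differed by 1.36 and 0.13. The probe set 206110_at, for 10 H3 genes, had a difference of 0.15, and 214472_at, for the same genes and H2AC7, had 152 in GAS2DN cells and 73.6 in Venus cells, a difference of 1.05. H3C4 and H2AC7 were read together by 214522_x_at with 101 in GAS2DN cells and 20.3 in Venus cells, a difference of 2.32 that was 0.86 with low signals raised.
Lower in GAS2DN cells were both probe sets shared by 6 H2A genes (H2AC11, H2AC12, H2AC13, H2AC15, H2AC16 and H2AC17), with 22.4 against 99.2 in Venus cells in 207156_at and 37.0 against 93.3 in 214542_x_at. Their GAS2DN signals were below the median, and the differences of -2.15 and -1.34 became -0.52 and -0.43 with low signals raised. H2AC16 and H2AC17 were higher in the probe sets of their own, so the probe sets of this group of genes went in different directions.

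By place, the largest block of histone genes on chromosome 6 held 19 eligible probe sets, 14 of them higher in GAS2DN cells, with a median of 0.45. A second block on that chromosome, with H2BC12 and H4C9, held 2, of which 1 was higher. The block farthest along the chromosome held 8, with 6 higher and a median of 0.91. On chromosome 1 H2BC21 and H2AC25 were higher and H3-4 lower. Genes whose RefSeq span is over 1000 bases, beyond the usual size of a histone gene, had 8 eligible probe sets, 7 of them higher, with a median of 0.49, and the shorter genes had 27, 19 of them higher, with a median of 0.75.

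Many H2A and H2B genes start back to back and share the stretch between them as a promoter. Among the 69 protein-coding members with a promoter sequence at hand, 11 such pairs were found by RefSeq (GRCh38.p14) positions. They had 193 to 247 bases between the starts. The other members were not searched, so pairs can be missing. For H2BC12 none was found, and whether it shares its promoter with an H2A gene outside the search is not known here. In 2 pairs both genes had an eligible probe set of their own. H2AC6 and H2BC4 had differences of 1.35 and -0.14, but H2BC4 was dim in GAS2DN cells. It is also read by shared probe sets with differences of 0.43 and 0.59, so a difference within the pair is not shown. H2AC15 and H2BC15 had -2.70 and -0.84, each with a dim GAS2DN signal, so that both passed the filter only through the Venus array. In H2AC14 and H2BC14 the differences were 1.13 and 1.34, and in H2AC17 and H2BC17 1.17 and -0.16, but the H2B probe sets were below the median on both arrays.

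Promoter sequences are shown for the linker histone genes H1-2 and H1-3, with differences of 0.83 and 1.0, for H2AC6, which had the largest difference among the probe sets of 1 gene bright on both arrays and shares this stretch with H2BC4, and for H2BC12, which had the brightest H2B probe set of 1 gene. Each line gives the 250 bases before the start of the gene named first, from RefSeq (GRCh38.p14), 5′ to 3′ on the strand of that gene. Capitals mark, on either strand, TATAAA (the TATA box), CCAAT (the CCAAT box), ATTTGCAT (the octamer known from H2B promoters) and AAACACA (the box known from H1 promoters), and where marks touch or overlap, capitals run together.
H1-2, chr6:26056471-26056720, minus strand: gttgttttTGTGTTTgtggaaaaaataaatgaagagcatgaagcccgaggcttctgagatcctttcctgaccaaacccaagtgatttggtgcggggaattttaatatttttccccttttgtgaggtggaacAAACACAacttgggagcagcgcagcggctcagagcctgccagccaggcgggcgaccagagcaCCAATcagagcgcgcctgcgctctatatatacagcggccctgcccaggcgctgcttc
H1-3, chr6:26234988-26235237, minus strand: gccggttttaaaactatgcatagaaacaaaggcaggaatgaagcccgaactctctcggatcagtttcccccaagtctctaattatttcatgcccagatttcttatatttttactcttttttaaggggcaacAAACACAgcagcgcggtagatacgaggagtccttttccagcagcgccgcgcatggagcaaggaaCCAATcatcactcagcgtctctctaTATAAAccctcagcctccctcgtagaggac
H2AC6 with H2BC4, chr6:26123922-26124171, plus strand: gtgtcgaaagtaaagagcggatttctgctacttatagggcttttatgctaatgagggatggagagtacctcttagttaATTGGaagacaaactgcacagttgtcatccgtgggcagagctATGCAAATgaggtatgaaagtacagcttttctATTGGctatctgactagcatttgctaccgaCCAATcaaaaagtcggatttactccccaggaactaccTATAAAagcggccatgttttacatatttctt
H2BC12, chr6:27146859-27147108, minus strand: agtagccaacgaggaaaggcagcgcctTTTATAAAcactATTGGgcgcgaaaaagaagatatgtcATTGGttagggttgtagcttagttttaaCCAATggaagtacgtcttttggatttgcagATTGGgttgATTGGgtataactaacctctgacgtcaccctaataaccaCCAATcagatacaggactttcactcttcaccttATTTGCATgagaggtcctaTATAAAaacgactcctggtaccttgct
In these letters the H1 box is found in both H1 promoters and the octamer in those of H2AC6 and H2BC12. Over the 69 protein-coding members with a promoter in the table, 45 held TATAAA (65.2%, against 11.1% of all 27305 promoters), 58 CCAAT (84.1% against 33.0%), 26 the octamer (37.7% against 1.66%) and 7 the H1 box (10.1% against 4.95%). The octamer was found in 14 of 18 H2B, 11 of 16 H2A and 1 of 13 H3 promoters, and the H1 box in 7 of 9 H1 promoters. Eligible members with the octamer had a median difference of 0.62 over 11 probe sets and those without it 0.45 over 21, those with TATAAA had 0.55 over 20 and those without 0.49 over 12, and those with CCAAT had 0.53 over 27 and those without 0.76 over 5. With the H1 box the median was 0.87 over 3 and without it 0.45 over 29. The H1 box was found only in H1 promoters, and CCAAT in all H2A, H2B and H3 but only 3 of 13 H4 promoters. These medians therefore cannot be told apart from histone class, and they include probe sets with 1 dim signal. A match of letters does not show that a factor binds there.

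Genes that process or handle histones and S phase genes had medians near that of all genes. Among 20 genes of histone pre-mRNA processing, all measured, 8 were higher and 12 lower in GAS2DN cells, with a median of -0.03, and over the main probe sets of all 13086 measured genes 56.2% were higher, with a median of 0.06. SLBP, the stem-loop binding protein, had 8760 in GAS2DN cells and 8965 in Venus cells, a difference of -0.03. NPAT, the coactivator of histone gene transcription, had 1359 in GAS2DN cells and 1875 in Venus cells, a difference of -0.46, though 0.84 in its other eligible probe set. CASP8AP2, the histone locus body protein FLASH, had 1319 in GAS2DN cells and 1824 in Venus cells, a difference of -0.47. MBLAC1, a nuclease known to cut histone pre-mRNA, was the only gene of the list over 2-fold in its main probe set, with 185 in GAS2DN cells and 47.7 in Venus cells, where it was below the median, against 7.91% of measured genes over 2-fold higher and 4.45% over 2-fold lower. NCBP1, a cap-binding subunit, had 42.6 in GAS2DN cells, where it was dim, and 131 in Venus cells in another eligible probe set, a difference of -1.62.
S phase genes had 11 higher and 11 lower of 22 measured, with a median of 0.02 that was -0.0342 after median centring, -0.0445 after loess and -0.0365 after quantile scaling. PCNA, the sliding clamp of DNA replication, had 10472 in GAS2DN cells and 12659 in Venus cells, and RRM2, a ribonucleotide reductase subunit, 17828 and 16975. Histone chaperones, which carry histones to and from DNA, had 9 higher and 12 lower of 21, with a median of -0.02 and a range of -0.32 to 0.50. Histone variants listed as replication-independent had 4 higher and 2 lower of 6 measured, with a median of 0.13. By the median over the probe sets of each gene it was -0.0545. H2AZ1, which encodes H2A.Z, had 28135 in GAS2DN cells and 28466 in Venus cells, and H2AX, the variant phosphorylated at DNA breaks, 4053 and 3590. No measured gene of these 3 lists was over 2-fold in its main probe set, but other eligible probe sets of GINS2, MCM6, TYMS, ATRX and NAP1L4 were over 2-fold lower in GAS2DN cells, with differences of -3.03, -1.38, -1.10, -1.08 and -1.06. Those of GINS2, TYMS and ATRX were dim in GAS2DN cells and passed the filter only through the Venus array. Over all eligible probe sets 6.62% were over 2-fold lower.

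**Figure D4:**
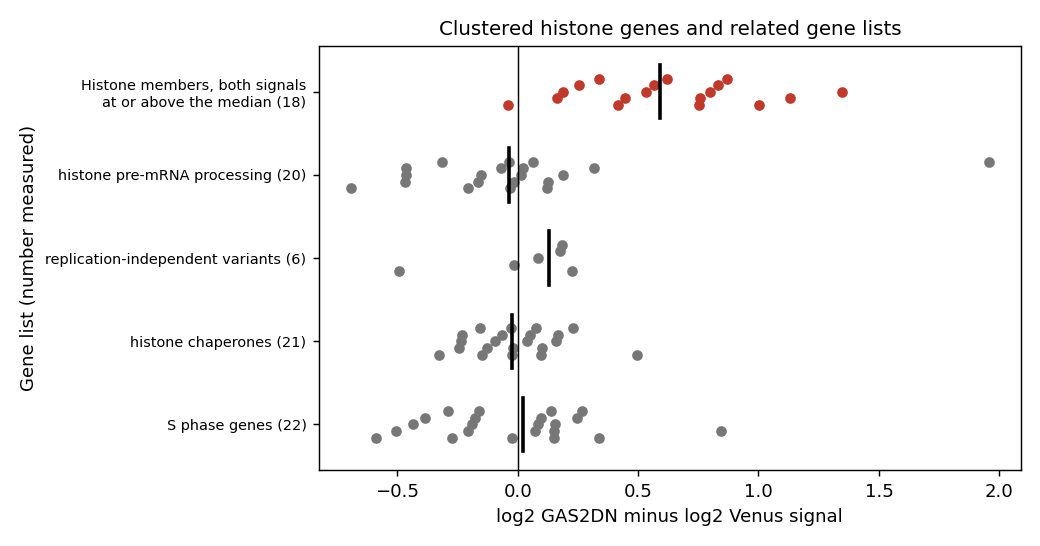
Difference between the arrays (x axis, log2 GAS2DN minus log2 Venus) of the 18 histone probe sets bright on both arrays (red) and of the main probe sets of measured genes in 4 related lists (grey), with the median of each as a black bar. The histone median is 0.59 and the medians of the 4 lists lie between -0.03 and 0.13. The sets are not matched, as the lists hold 1 probe set per gene, needed only the brighter signal to reach the median and are mostly brighter. With both signals required, the medians of the lists lie between -0.04 and 0.13.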

How the data were processed

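RNA from 3 extracts of GAS2DN or Venus transduced MEG-01 cells was pooled and labelled with the GeneChip 3' IVT Express kit. The authors deposited log2 MAS5 signals of 1 array per group, without detection calls, and the submitters' notes give no version of MAS5. Both arrays had a 2% trimmed mean signal of 500.1, so the deposited scaling was kept. Of 54675 probe sets 62 controls were left out. In the platform's annotation 41091 of the rest name 1 gene, 1801 name more than 1 and 11721 name no gene, and symbols were updated by gene identifier through RefSeq (GRCh38.p14).

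Differences are log2 GAS2DN minus log2 Venus. The main probe set of a gene in the related lists was that with the largest mean of its log2 signals, those ending in _x_at only where the gene had no other, and a gene was measured when it was eligible. Thresholds were 3-fold, as in the study, and 2-fold. Members named were those over 2-fold, the 2 brightest of each class, genes with 2 eligible probe sets, and shared probe sets by the same limits. In the related lists these were genes over 2-fold with SLBP, NPAT and CASP8AP2. PCNA, RRM2, H2AZ1, H2AX, NCBP1, the genes named for a second probe set and the other members named were chosen after their values were seen. The members and lists were chosen with earlier results of these data known.

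Alternatives were other filters on dim probe sets (none, bright on both arrays, or the brighter signal reaching percentile 75), median centring, loess (span 0.2, 3 iterations), quantile normalization, low signals raised to the array median, other kinds of probe set and 1 probe set for each gene. Steps were tested on simulated data. Computation used statsmodels 0.14.6 with scipy 1.17.1, numpy 2.4.6 and pandas 2.3.3 in Python 3.11.15, and figures were drawn with matplotlib 3.10.9.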

Additional observations from a re-analysis of the deposited data

How the results depend on the processing

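The direction of each of the 35 eligible histone probe sets was kept under median centring, loess and quantile scaling, and the median over them was 0.56, 0.43 and 0.45 under these. Among those bright on both arrays, some that exceeded the SD of 0.41 between probe sets of 1 gene as deposited did not after scaling. These were H2BC21 and H4C13 after loess and quantile scaling, and H1-10 and 222067_x_at of H2BC5 after median centring. With low signals raised to the median H2BC4 and H4C8 turned to 0.13 and 0.11, so that 28 and not 26 were higher. Both signs rest on the higher median of the GAS2DN array and not on a higher signal in GAS2DN cells. The shared probe set 206110_at turned to -0.069 after loess and -0.0862 after quantile normalization. Counts over 3-fold depended on the filter. With no filter 8 of 58 were higher and 5 lower, but the share over all probe sets was not counted for that setting. The counts were 0 and 0 for probe sets bright on both arrays, with the brighter signal reaching percentile 75 or with low signals raised to the median. At a threshold of 2-fold 10 were higher and 2 lower among the 35. Of those 10, H1-3 was under 2-fold after median centring, loess and quantile scaling. H2AC17 and H3C11 were under 2-fold after loess and quantile scaling, and H4C4 after quantile scaling. Without probe sets ending in _x_at or _s_at 1 was over 3-fold lower. With those left out among probe sets bright on both arrays, a combination chosen after seeing the data, none was over 3-fold in either direction (0 higher, 0 lower), 8 of 8 were higher and the median was 0.68, against 55.6% and a median of 0.05 over all 14639 such probe sets. The H3 median of -0.07 was -0.30 after loess and -0.32 after quantile normalization, and became 0.25 for the 1 probe set bright on both arrays, 0.15 with shared probe sets added and 0.56 without probe sets ending in _x_at or _s_at. Without those the H2B median was -0.14, which is the value of H2BC4, dim in GAS2DN cells. The H2B median of 0.19 was 0.45 for probe sets bright on both arrays, 0.49 at percentile 75, 0.43 with shared probe sets added and 0.41 with no filter. The H2A median was 0.67 with shared probe sets added. For S phase genes the median was 0.02 as deposited, but -0.0232 at percentile 75, -0.0342 after centring, -0.0445 after loess, -0.0365 after quantile normalization and -0.0867 by the median over the probe sets of each gene, and that of histone variants of 0.13 was -0.0545 by the same rule. In these results the settings changed which probe sets entered or how they were scaled, and the cause was not tested beyond that. No paired analysis was possible because each group had 1 array of pooled RNA.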
